A study of Rattus norvegicus with 17 samples.

Results

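The genes of MHC class II antigen presentation were followed through the skin of rats kept under long-term millimetre-wave exposure or sham exposure. They were 8 genes of 15154 with a named probe, chosen by name: the classical class II chains RT1-Da, RT1-Db1, RT1-Ba and RT1-Bb, the peptide-loading pair RT1-DMa and RT1-DMb, the invariant chain Cd74 and the transactivator Ciita. A probe belonged to a gene where its transcript accession on the array matched that gene in RefSeq, which gave 10 probes of 30367. Of the 8 genes, 7 were measured, with 9 probes that were each well above background on all 17 arrays. The only probe of RT1-Ba was not well above background on any array, so that gene has no level here.

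Skin explants were taken from male CD hairless rats that were 2 to 3 months old at the start. Exposed rats received 94 GHz waves for 3 h a day on 3 days a week over 5.5 months, and sham rats were sham exposed on that schedule. The RNA was labelled with Cy3 and hybridised to single-colour Agilent arrays, 9 from exposed and 8 from sham skin. Arrays are numbered here as replicates of their group in the order of the sample list, and the labels do not give these numbers. By the study's design 6 animals were exposed and 8 were sham exposed, and no label ties an array to an animal. On that count some of the 9 exposed arrays share an animal. The p-values between groups and of correlations over arrays may therefore be too small. Keratinocyte markers were well above background on every array for the 7 of 8 that had a named probe, among them Krt5, Krt14 and Krt1.

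Class II molecules are pairs of an alpha and a beta chain that carry peptides from the endosome to the cell surface, where CD4+ T cells read them. The invariant chain fills the groove of a new pair until its last fragment is exchanged for a peptide with the help of the DM molecule. The genes are switched on together by CIITA, a coactivator that docks on factors bound to a shared promoter module of X and Y boxes, and in skin they are carried mainly by Langerhans cells, dermal dendritic cells and macrophages, with interferon gamma able to induce them elsewhere. RT1-D is the rat counterpart of human HLA-DR and RT1-B that of HLA-DQ.

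The promoters are shown as background to the module of X and Y boxes. Whether the module bears on how the genes varied over the arrays was not tested. RefSeq (GRCr8) gave a window of 250 bases before to 50 after the start for 6 of the 8 genes, and RT1-DMb and Ciita had no entry. Each line below is the stretch 120 to 21 bases before the start, 5′ to 3′ on the gene's strand, with capitals for an X-like core (GNNACNGNT or GCAAC), for the Y box core ATTGG and for the cyclic AMP element TGACGTCA.
RT1-Da, chr20:4515295-4515394, plus strand: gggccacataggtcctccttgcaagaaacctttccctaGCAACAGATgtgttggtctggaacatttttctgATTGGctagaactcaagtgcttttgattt
RT1-Db1, chr20:4560183-4560282, minus strand: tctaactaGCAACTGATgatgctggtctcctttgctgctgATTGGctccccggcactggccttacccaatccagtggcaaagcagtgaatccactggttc
RT1-Ba, chr20:4576937-4577036, plus strand: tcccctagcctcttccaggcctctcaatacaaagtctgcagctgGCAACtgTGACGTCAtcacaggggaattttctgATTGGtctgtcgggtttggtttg
RT1-Bb, chr20:4604139-4604238, minus strand: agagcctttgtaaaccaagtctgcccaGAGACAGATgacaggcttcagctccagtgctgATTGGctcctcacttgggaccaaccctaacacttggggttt
RT1-DMa, chr20:4712356-4712455, minus strand: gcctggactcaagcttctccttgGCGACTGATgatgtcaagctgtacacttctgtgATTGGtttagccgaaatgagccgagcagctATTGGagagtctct
Cd74, chr18:56527086-56527185, plus strand: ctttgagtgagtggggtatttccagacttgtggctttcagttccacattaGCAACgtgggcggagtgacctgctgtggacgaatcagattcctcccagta
Distances were counted from the first base of the X-like core to the first base of ATTGG on the same strand. This distance was 33 bases in RT1-Da, RT1-Ba and RT1-DMa and 32 bases in RT1-Db1 and RT1-Bb. Cd74 held GCAAC 70 bases before the start but no ATTGG on the gene strand. RT1-Ba was the only one of the 6 with TGACGTCA, 69 bases before its start. An X-like core followed by ATTGG on the same strand, 30 to 33 bases from first base to first base, was then searched for. On the gene strand this pair was found in 5 of the 6 members and in 4 of 4 further class II genes with an entry (RT1-Db2, RT1-DOa, RT1-DOb and RT1-Ha). Of 27457 promoters of the same length, 0.157% held it on the gene strand and 0.306% on either strand. Taken singly, these letters were common: GNNACNGNT was in 35.3% of promoters on either strand, GCAAC in 35.2%, ATTGG in 37.7% and TGACGTCA in 1.91%. The motifs and the spacing were chosen after the sequences had been read, GCAAC can lie within GNNACNGNT, and a match is a run of letters, not a measured binding site.

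Values are log2 of the processed signal minus the array's 75th percentile, so 0 is the signal of a probe at that percentile. Levels of different genes cannot be set against each other, since each probe has its own brightness. None of the 20709 measured probes differed between exposed and sham skin in limma with Benjamini-Hochberg adjustment (0 called, 0%, lowest adjusted p 0.983). At an unadjusted p below 0.05 there were 943 probes (4.55%), 123 higher in exposed skin (0.594%) and 820 lower (3.96%). No class II gene was among them: 0 of 7 passed either threshold. All 7 differences lay a little below 0, with a median of -0.086 on the log2 scale, and 61.3% of all measured probes also lay below 0, with a median of -0.025. In whole skin, fewer cells of a type and less RNA per cell cannot be told apart.

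RT1-Da, the alpha chain of RT1-D, had a lowest, median and highest value of 1.38, 1.76 and 2.43 in exposed skin, against 1.31, 1.72 and 2.58 in sham skin. The groups overlapped over nearly their whole range, and 1 exposed and 2 sham arrays stood well above the others. The mean was 1.79 ± 0.29 over the 9 exposed arrays and 1.90 ± 0.43 over the 8 sham arrays (± SD). The difference of -0.11 (95% interval -0.46 to 0.24, which is 0.726 to 1.18-fold) was within the spread between arrays, with an adjusted p of 0.983 in limma and a p of 0.537 in a two-sided exact permutation test.

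RT1-Db1, the beta chain that pairs with it, had a lowest, median and highest value of 3.14, 3.36 and 4.11 in exposed skin, against 2.90, 3.38 and 4.18 in sham skin. The same 3 arrays were the high ones: exposed replicate 2 and sham replicates 5 and 6. The difference between exposed and sham skin was -0.076 (-0.41 to 0.26, adjusted p 0.986 in limma). A second probe of RT1-Db1 gave -0.066 and followed the first over the arrays at r = 0.986. RT1-Db2, its close copy, had no named probe, and whether transcripts of RT1-Db2 add to the RT1-Db1 signal was not tested.

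RT1-Bb, the beta chain of RT1-B, had a lowest, median and highest value of 2.49, 2.72 and 3.47 in exposed skin, against 2.31, 2.78 and 3.55 in sham skin. Exposed replicate 2 and sham replicate 5 were again at the top of their groups and sham replicate 2 was at the bottom of all 17 arrays. The difference was -0.067 (-0.40 to 0.27, adjusted p 0.986 in limma), and -0.064 with a second probe, which followed the first at r = 0.970. Its partner is the alpha chain RT1-Ba, whose only probe gave no measurable signal. Whether that probe matches the RT1-Ba sequence of these rats was not checked.

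Cd74, the invariant chain, had a lowest, median and highest value of 3.07, 3.23 and 3.90 in exposed skin, against 2.75, 3.32 and 4.11 in sham skin. Its 3 highest arrays were those of the chains, and the groups overlapped. The mean was 3.30 ± 0.25 over the 9 exposed arrays and 3.39 ± 0.43 over the 8 sham arrays (± SD), a difference of -0.096 (-0.43 to 0.24, adjusted p 0.983 in limma).

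RT1-DMa, the alpha chain of the peptide exchanger DM, had a lowest, median and highest value of -0.20, 0.057 and 0.45 in exposed skin, against -0.22, 0.11 and 0.60 in sham skin. Its range over the arrays was the narrowest of the 7 genes, at 1.77-fold, and the groups overlapped over most of it. The difference was -0.037 (-0.25 to 0.18, adjusted p 0.988 in limma). RT1-DMb, the beta chain of DM, had a lowest, median and highest value of 0.19, 0.33 and 0.77 in exposed skin, against 0.17, 0.43 and 1.16 in sham skin. Its high arrays were others than those of the chains, sham replicate 3 at 1.16 and exposed replicate 9 at 0.77. The difference was -0.086 (-0.34 to 0.17, adjusted p 0.983 in limma).

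Ciita, the transactivator, had a lowest, median and highest value of -4.32, -4.07 and -3.50 in exposed skin, against -4.63, -3.74 and -3.60 in sham skin. Most sham arrays lay in a narrow upper band while sham replicate 2 was the lowest of all 17. The difference was -0.099 (-0.39 to 0.19, adjusted p 0.983 in limma), with a p of 0.504 in a two-sided exact permutation test, the lowest such p of the 7 genes. Its probe was the dimmest of the 7 genes, and the 2 spots of the probe differed by up to 0.49 on an array.

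**Figure D1:**
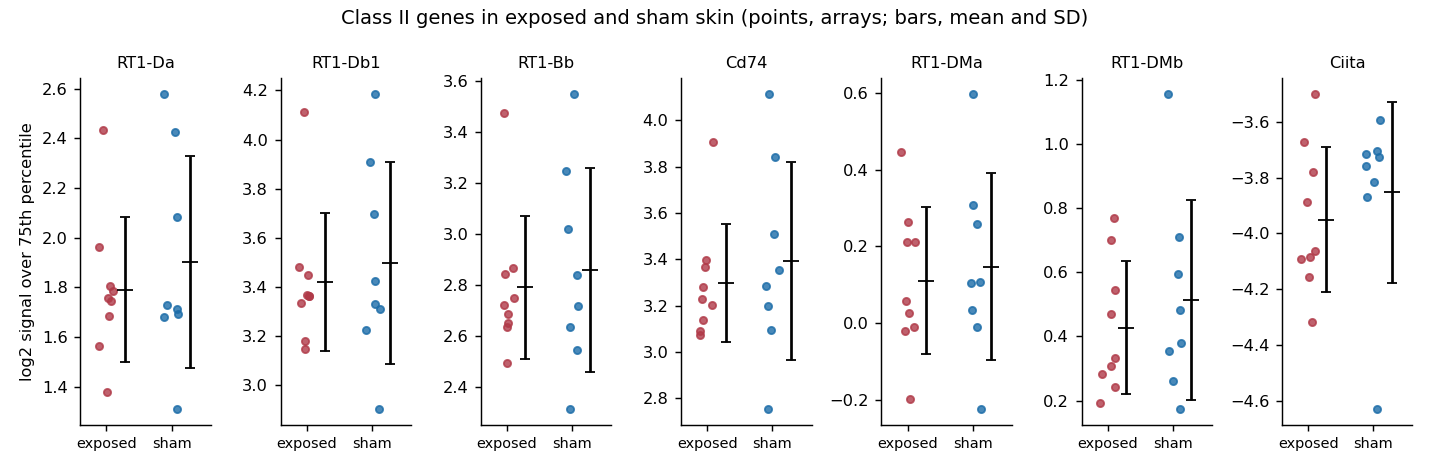
Values of the 7 measured class II genes, 1 panel a gene, with exposed skin on the left and sham skin on the right. The vertical axis is the log2 signal over the array's 75th percentile, on a scale of its own in each panel, each point is an array, and bars are the mean and SD (n = 9 exposed, n = 8 sham). The groups overlap in every panel, and the differences lie between -0.11 for RT1-Da and -0.037 for RT1-DMa.

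By the numbers in the sample titles the arrays lay on 4 slides, and both groups were on each slide. Of the class II genes 0 of 7 passed a test of differences between slides in limma (adjusted p 0.834 to 0.954), as did 0 of all 20709 probes (0%), of which 1643 (7.93%) had an unadjusted p below 0.05. The sign of the exposed minus sham difference was not the same on every slide. On slide 1, with 3 exposed and 2 sham arrays, all 7 genes were higher in exposed skin, with a median difference of 0.39. On slide 2, with 4 exposed and 2 sham arrays, 6 of 7 were lower (median -0.10). On slide 3 the single exposed array was lower than the single sham array for all 7 genes, with a median of -0.74, and that sham array was replicate 5. On slide 4, with 1 exposed and 3 sham arrays, 6 of 7 were lower (median -0.34), the exception being RT1-DMb at 0.37. With slide as a block, Cd74 differed by -0.078 and RT1-Da by -0.12.

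All 7 class II genes had a larger SD over the arrays than the median probe. The SD over the 17 arrays was 0.35 for RT1-Da, 0.34 for RT1-Db1, 0.33 for RT1-Bb, 0.34 for Cd74, 0.29 for Ciita, 0.26 for RT1-DMb and 0.21 for RT1-DMa. The median measured probe had an SD of 0.194, with quartiles of 0.131 and 0.309, and 26.4% of probes had an SD of at least 0.3. The 2 spots of a class II probe differed by a median of 0.024 log2 units for RT1-Bb to 0.10 for Ciita, well below these spreads. Cd74 spanned 2.56-fold between its lowest and highest array, RT1-Db1 2.44-fold and RT1-Da 2.41-fold. The mean of the 6 genes without Ciita, each centred on its own mean, was highest on sham replicate 5 at 0.61, then on exposed replicate 2 at 0.50 and on sham replicate 6 at 0.38, and it was lowest on sham replicate 2 at -0.42. The 3 high arrays lay on different slides and in both groups.

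**Figure D2:**
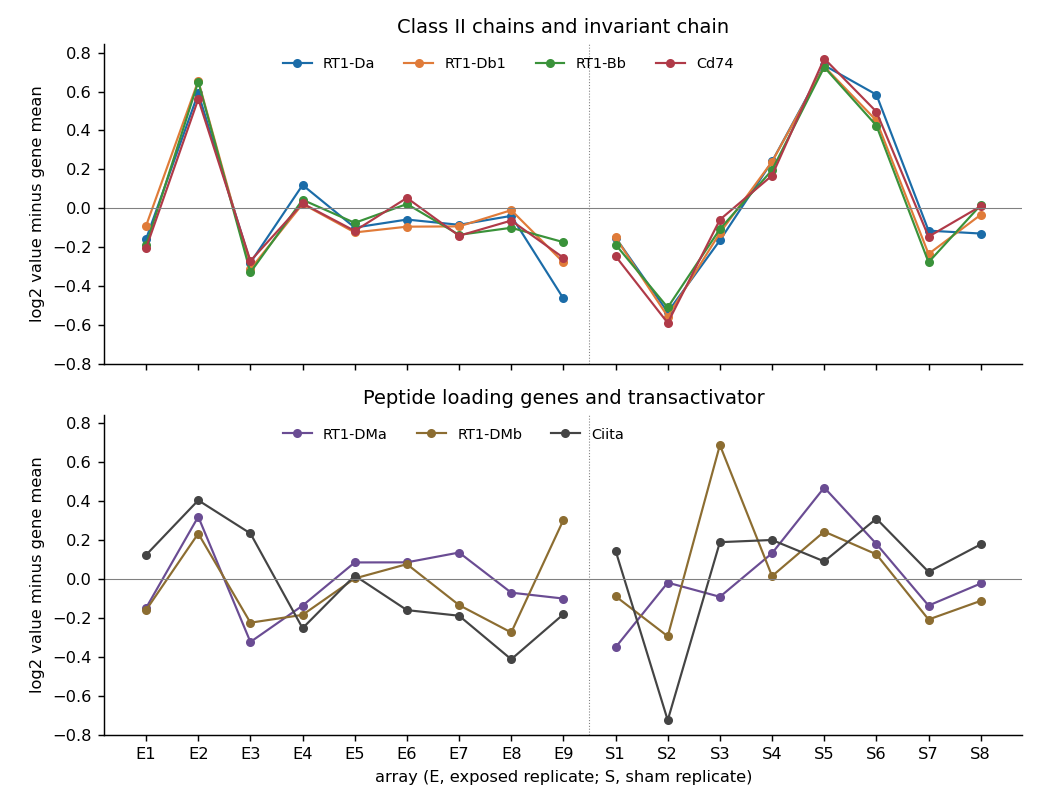
Log2 value of each class II gene minus its mean over the 17 arrays (vertical axis), by array (horizontal axis), with exposed replicates on the left and sham replicates on the right of the dotted line. In the upper panel RT1-Da, RT1-Db1, RT1-Bb and Cd74 run nearly on top of each other and peak on exposed replicate 2 and sham replicates 5 and 6. In the lower panel RT1-DMb peaks on sham replicate 3 and Ciita is lowest on sham replicate 2.

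The surface chains and the invariant chain moved together over the arrays. Over the 17 arrays the 6 pairs among RT1-Da, RT1-Db1, RT1-Bb and Cd74 had Pearson r of 0.952 to 0.984 and Spearman rho of 0.882 to 0.963. The adjusted permutation p over the 21 pairs tested was 3.5e-05 for each r, from a raw p of 1e-05, the smallest that 100000 resamples can give, and 0.000105 for each rho. Within exposed arrays these r were 0.919 to 0.986, and within sham arrays 0.970 to 0.996. With the slide and group means removed they were 0.947 to 0.985. Without the 2 arrays farthest from the median of the first gene of the pair they were 0.905 to 0.970. The tie was close in size too: RT1-Db1 minus RT1-Bb had an SD of 0.060 over the arrays and RT1-Bb minus Cd74 one of 0.061, against 0.33 to 0.34 for each gene alone.

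RT1-DMa followed these 4 genes with more scatter. Its r with the 4 genes was 0.742 to 0.804 and its rho 0.613 to 0.706, with adjusted permutation p of 0.00045 to 0.00139 for r and 0.00643 to 0.0214 for rho. Without the 2 arrays farthest from the median of the first gene of the pair these r were 0.481 to 0.574 and did not pass (adjusted permutation p 0.0579 to 0.102). Without the 2 farthest in the second gene, a setting added after the data were seen, the pair of RT1-Bb and RT1-DMa passed (adjusted permutation p 0.0474). Within exposed arrays r was 0.679 to 0.779 and within sham arrays 0.779 to 0.818.

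RT1-DMb did not pass with any of the 4 genes by r over all arrays, and 2 of its arrays lay apart. Its r with the 4 genes was 0.297 to 0.458 over all 17 arrays (adjusted permutation p 0.0913 to 0.258). Its rho was 0.279 to 0.576, and of the 4 pairs that with RT1-Bb passed by rho (adjusted permutation p 0.034). Without its own 2 farthest arrays, sham replicate 3 and exposed replicate 9, the r were 0.846 to 0.90. Leaving those arrays out was decided after the data were seen. Without the 2 arrays farthest in the other gene of the pair, r was lower: 0.077 with RT1-Da, 0.196 with RT1-Db1 and 0.317 with RT1-Bb. With Cd74 it was 0.30, in a setting also added after the data were seen. None of these passed (adjusted permutation p 0.281 to 0.762). On sham replicate 3 and exposed replicate 9 RT1-DMa was inside its range on the other arrays. The difference RT1-DMa minus RT1-DMb spanned 1.06 log2 units over the arrays.

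Ciita correlated with the same 4 genes by r and not by rho. Its r with the 4 genes was 0.522 to 0.549 (adjusted permutation p 0.0422 to 0.0493), while rho was 0.216 to 0.368 and did not pass (adjusted permutation p 0.206 to 0.423). Without the 2 arrays farthest in the other gene r was 0.471 to 0.537 and did not pass (adjusted permutation p 0.0862 to 0.106). Without its own 2 farthest arrays, sham replicate 2 and exposed replicate 8, a setting added after the data were seen, r was 0.382 to 0.451 (adjusted permutation p 0.13 to 0.19). With slide and group means removed r was 0.672 to 0.728 and passed (adjusted permutation p 0.0038 to 0.00972). The same pairs passed after quantile scaling (adjusted permutation p 0.0188 to 0.0291) and after normexp (0.00756 to 0.0195). Within exposed arrays (adjusted permutation p 0.413) and within sham arrays (0.2 to 0.214), where fewer arrays are used, they did not pass. With RT1-DMa its r was 0.144 and with RT1-DMb 0.430, neither past the threshold (adjusted permutation p 0.58 and 0.105). In all, 14 of the 21 pairs passed by r and 11 by rho.

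**Figure D3:**
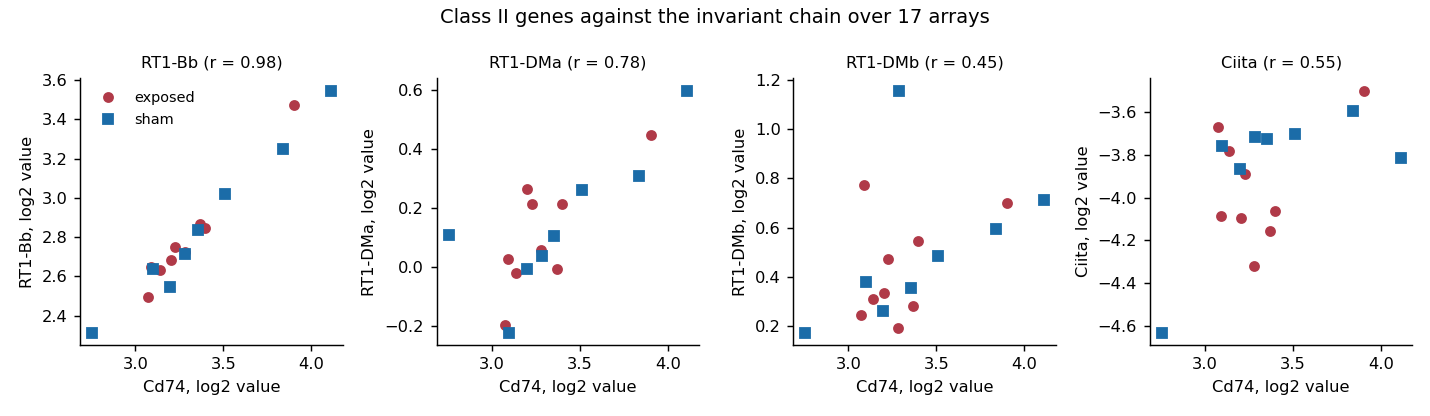
Log2 values of RT1-Bb, RT1-DMa, RT1-DMb and Ciita (vertical axes) against those of Cd74 (horizontal axes), each point an array, with circles for exposed and squares for sham skin. RT1-Bb lies on a line (r = 0.984), RT1-DMa follows with more scatter (r = 0.780), RT1-DMb has 1 array far above the others (r = 0.445), and Ciita has 1 array far below (r = 0.549).

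Other genes of the pathway were read from lists by role, and none of their genes passed adjustment between exposed and sham skin in limma. Correlations from here on are with the mean of the 6 class II genes over the 17 arrays, given as a description; over the 11154 named genes outside the class II set their median was 0.065, and 256 of those (2.3%) reached 0.7. Of the further class II genes 2 were measured, the 2 chains of DO, the inhibitor of DM. RT1-DOa, whose probe was well above background on only 11 of the 17 arrays, had r = 0.667 and differed by -0.26 between exposed and sham skin (adjusted p 0.983), and RT1-DOb had r = 0.594 and differed by -0.17 (-0.34 to 0.0052, unadjusted p 0.0565, adjusted p 0.983). The mean of both had r = 0.704 with the class II mean, and 0.307 without exposed replicate 2 and sham replicate 5.

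Of the 9 genes of endosomal processing, 3 were higher and 6 lower in exposed skin, with a median difference of -0.025 and none called. Ifi30, the thiol reductase that opens disulphide bonds of antigens, had r = 0.846, and Ctss, the protease that trims the invariant chain, had r = 0.812. Ctsb, a further lysosomal protease, had r = 0.612, and Ctsl, which trims the invariant chain in mouse thymus, had r = 0.233. Sppl2a, which cleaves the membrane stub of Cd74, was at r = -0.0017. The lowest was the protease Ctse at r = -0.54, and the median r of the list was 0.442.

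Of the 15 measured genes for transcription of class II, 7 were higher and 8 lower in exposed skin, with a median difference of -0.0076. Creb1, a factor of the cyclic AMP element in the module, differed by -0.17 (-0.28 to -0.058, unadjusted p 0.00532) and did not pass adjustment (adjusted p 0.983 in limma). Among the factors that bind the module, Nfya had r = -0.679 (rho -0.441) and Nfyc -0.537 (rho -0.343). The others measured were Rfxap at r = -0.306, Nfyb at -0.087, Creb1 at 0.013 and Rfxank at 0.133. Rfx5 was not well above background. Of the interferon gamma receptor, the chain Ifngr2 had r = 0.613 and the chain Ifngr1 had 0.386. The probe of Ifng itself was not well above background. The median r of the list was 0.092, close to that of all genes.

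The 8 measured interferon gamma targets were 4 higher and 4 lower in exposed skin, with a median difference of 0.0098. Their r with the class II mean was 0.697 for the feedback inhibitor Socs1, 0.606 for the chemokine Cxcl10, 0.569 for the GTPase Gbp2, 0.551 for Gbp5, 0.514 for Cxcl9, 0.503 for Wars1, 0.406 for Igtp and -0.18 for Irgm. Their mean had r = 0.617 but rho = 0.255, and r = 0.296 without exposed replicate 2 and sham replicate 6, the arrays on which it was highest. Socs1 was well above background on only 10 of the 17 arrays.

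Of 5 measured genes of turnover and costimulation, Cd40, the receptor of T cell help, had r = 0.716 and the adhesion molecule Icam1 0.638. Cd83 had r = 0.155, Marchf8, a ligase that marks class II for degradation, 0.061, and Cd274 -0.081. Marchf1, Cd80 and Cd86 were not well above background. Of 14 measured class I genes 4 were higher and 10 lower in exposed skin, with a median difference of -0.026 and a median r of 0.181. Among these, Psmb9, a subunit of the immunoproteasome, had r = 0.676, B2m, the class I light chain, 0.656 and the further subunit Psmb10 0.573, while the peptide pump Tap1 had 0.027 and Tap2 -0.11.

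Markers of macrophages moved with the class II genes over the arrays. Of 15 macrophage markers 13 were measured, all 13 had a positive r, and their median r was 0.675, with C1qa at 0.869, C1qb at 0.868, Fcgr1a at 0.791 and Cd163 at 0.684. Their mean level ranged over -0.35 to 0.30 in exposed skin and -0.48 to 0.75 in sham skin and had r = 0.806 with the class II mean (rho 0.662). This r was 0.593 within exposed arrays, 0.919 within sham arrays and 0.598 without sham replicates 5 and 6. Of 17 dendritic and Langerhans cell markers 9 were measured: Cd207, Itgax and Flt3 had no named probe, and Zbtb46, Xcr1, Clec9a, Cd209a and Itgae were not well above background. The mean of those 9 ranged over -0.21 to 0.39 in exposed skin and -0.34 to 0.22 in sham skin and had r = 0.202, and 0.504 without exposed replicate 6 and sham replicate 6. Single genes of that list ran between Epcam at -0.49 and Clec10a at 0.690.

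Lymphocyte markers gave lower values. Of 10 T cell markers 8 were measured, and their mean had r = 0.510 and ranged over -0.37 to 0.30 in exposed skin and -0.27 to 0.30 in sham skin. Of 7 B cell markers 3 were measured, and their mean had r = 0.270 and ranged over -0.85 to 0.29 in exposed skin and -0.21 to 0.29 in sham skin. Hair follicle genes went the other way. All 8 measured of 10 had a negative r (-0.65 to -0.52), and their mean ranged over -3.47 to 2.40 in exposed skin and -7.00 to 2.56 in sham skin, the lowest array being sham replicate 5. Its r of -0.64 with the class II mean was -0.26 within exposed arrays, -0.80 within sham arrays and -0.48 without exposed replicate 4 and sham replicate 5. With that mean as a covariate, RT1-Db1 differed by 0.0014, RT1-Bb by 0.0074, Cd74 by -0.020 and RT1-Da by -0.026 between exposed and sham skin. RT1-DMa then differed by 0.0095. RT1-DMb at -0.088 and Ciita at -0.10 stayed near their differences without the covariate, -0.086 and -0.099. Skeletal muscle markers, of which 9 of 12 were measured and which ranged over -3.45 to 5.83 in exposed skin and -3.48 to 5.20 in sham skin, had r = 0.031. The part of macrophage and lymphocyte content in the class II values was not tested.

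**Figure D4:**
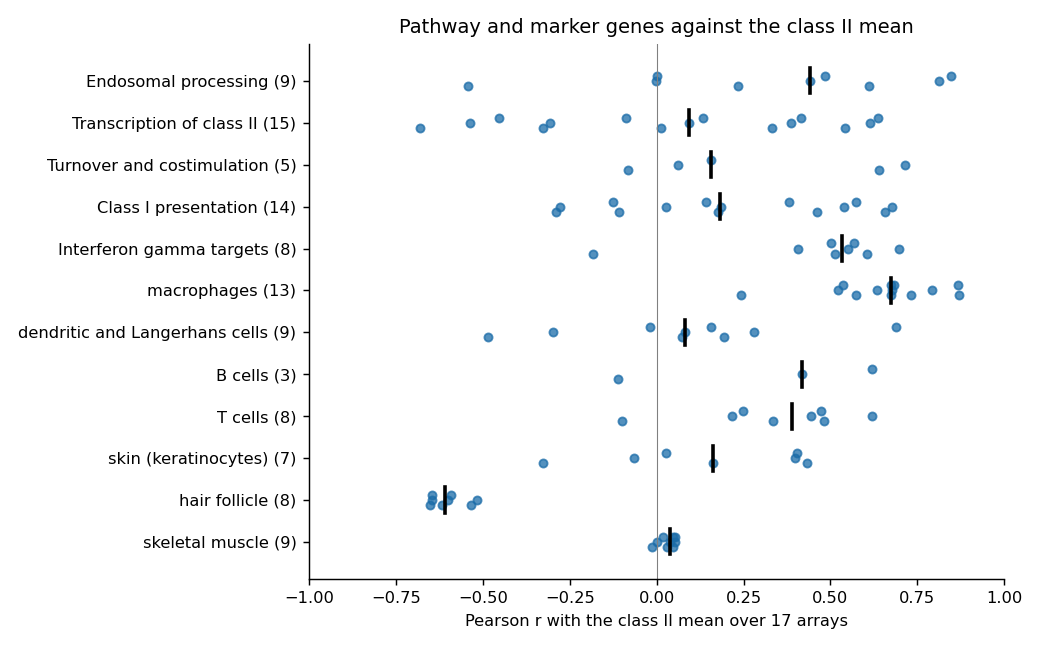
Pearson r of each measured gene of a list with the mean of the 6 class II genes over 17 arrays (horizontal axis), by list (vertical axis, number of measured genes in brackets), with a bar at the list's median. Macrophage markers lie to the right (median 0.675), hair follicle genes to the left (-0.65 to -0.52), and genes for transcription of class II on both sides of 0 (median 0.092).

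The genes most like the class II mean, among 11154 named genes outside the set, were led by Snx20 at r = 0.888, a sorting nexin of leukocytes. Next came Laptm5 at 0.879, a lysosomal protein of blood cells, Iah1, an esterase, at 0.876, C1qa at 0.869 and C1qb at 0.868, chains of complement C1q, Idh3g, a subunit of isocitrate dehydrogenase, at 0.866, Foxk1, a forkhead factor, at 0.859 and Fcer1g at 0.857, the shared gamma chain of Fc receptors. No gene outside the set reached 0.9, and 52 (0.466%) reached 0.8. Laptm5 and Fcer1g had a lower rho than r, at 0.686 and 0.652, while Snx20 held 0.858. For exposed against sham skin none of the 8 was called in limma (adjusted p 0.983 to 0.997).

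The genes most like Ciita were others. They were Cnr2, the cannabinoid receptor of immune cells, at r = 0.802, Pag1, an adaptor of lymphocyte signalling, at 0.796, Il7r, the interleukin-7 receptor, at 0.771, Glipr1 at 0.748 and Napsa, an aspartic protease, at 0.739. The probe of Pag1 was well above background on 14 of the 17 arrays. Of the 11154 genes 11 (0.0986%) reached 0.7 with Ciita, against 256 with the class II mean, and the difference of these counts was not tested. The references are unlike. Ciita is a single probe, the dimmest among the measured probes of the 8 class II genes, and the class II mean is an average over brighter ones. Cnr2 differed by -0.088 between exposed and sham skin and Il7r by -0.25, each with an adjusted p of 0.983 in limma.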

How the data were processed

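Per the file headers, each array was scanned and read by the authors with Agilent Feature Extraction 10.7.3.1 under the protocol GE1_107_Sep09, on a grid annotated on rn4. The deposited files give per-spot intensity (processed signal, background-subtracted, with flags). The deposited value table holds log2 values for 14853 probes, which follow the scanner values at r = 0.981 to 0.999 with rows centred on a median of 0; its direction matches theirs, its normalization is not given in the sources read, and Ciita is not in it. It was used as an alternative source of values. The 75th percentile of the processed signal was 1077 to 1703 per array, 66.7 to 70.8% of probes were well above background and no spot was saturated; the number of arrays limits the precision.

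Flagged and control spots were left out, log2 signals averaged per probe and each array's 75th percentile over non-control spots subtracted. Probes well above background on at least 8 arrays were kept (20709). Where a gene had several, the one with the highest mean stood for it. Probes were named through RefSeq (17998 of 30367 probes). All kept probes were tested for exposed against sham skin in limma 3.58.1 (R 4.3.3), at an adjusted p of 0.05. Only the class II genes were also tested with an exact permutation test over all 24310 splits. Correlations were tested with 100000 permutations (scipy 1.17.1), and within exposed or within sham arrays over all orders of the arrays. The tests were tried on simulated data. Members and gene lists were chosen with earlier results of these data known. Named genes were all members, the 8 most like their mean, the 5 most like Ciita and, of each pathway list of over 8 measured genes, the 3 with the largest r and the 2 with the smallest p, otherwise all of them; further genes were named for their role. The values of 1 gene that this rule names are not reported here. Nothing says that the arrays of a group came from separate animals throughout, so the p-values reflect array-to-array spread, part of which may be technical.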

Additional observations from a re-analysis of the deposited data

Results flagged for a closer look

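Single arrays stood apart from their group in 6 of 20 tests of a group's highest or lowest value (Dixon's test at the 95% level), and chance gives about 1 in 20; the tests are not independent, since the class II genes move together. Exposed replicate 2 was far above the other exposed arrays for both probes of RT1-Db1, at 4.11 against 3.48 for the next array and at 2.89 against 2.32. The same array was at 3.47 against 2.87 for RT1-Bb and at 3.90 against 3.40 for Cd74. Its mean of the 6 class II genes was 0.50, against 0.014 for the next exposed array. For Ciita, sham replicate 2 was at -4.63, against -3.87 for the next sham array.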

How the results depend on the processing

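No class II gene and no probe of the whole table passed adjustment under any alternative tried (scaling, background correction, filter, slide as a block, array weights, marker means as covariates, the deposited table, each array left out). At an unadjusted p below 0.05 the split of all probes moved with the scaling, with 200 higher and 635 lower in exposed skin after quantile scaling, 203 and 595 after median scaling, and 75 and 1024 after normexp, against 123 and 820. Within slide 1 the median class II difference was 0.39, with RT1-Da at 0.39, RT1-Db1 at 0.44, RT1-Bb at 0.39, RT1-DMa at 0.13, RT1-DMb at 0.14, Cd74 at 0.45 and Ciita at 0.54. RT1-DMa was at 0.022 within slide 2 and RT1-DMb at 0.37 within slide 4. With the hair follicle mean as a covariate RT1-Db1 was at 0.0014, RT1-Bb at 0.0074 and RT1-DMa at 0.0095, while RT1-DMb at -0.088 and Ciita at -0.10 hardly moved. Leaving out 1 array moved the median difference between -0.16 (without sham replicate 2) and 0.0064 (without sham replicate 5). RT1-Da then ranged over -0.20 to -0.014, RT1-Db1 over -0.16 to 0.023, RT1-Bb over -0.15 to 0.031, RT1-DMa over -0.090 to 0.027, RT1-DMb over -0.14 to 0.0053, Cd74 over -0.19 to 0.0064 and Ciita over -0.21 to -0.053. The cause of these moves was not tested. Of the 21 correlations, 8 passed without the 2 arrays farthest in the first gene and 8 within exposed arrays, where fewer arrays are used; r of RT1-DMa and Ciita was -0.090 without the 2 farthest. No paired analysis was possible because the labels pair no exposed array with a sham array and tie no array to an animal. The number of arrays and, for RT1-Ba, a signal not well above background limit what can be seen.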
